A study of Homo sapiens with 4 samples.

Results

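Chromosome 13 carried 2587 of the 78048 ATAC-seq peaks listed for OVSAHO cells on chromosomes 1 to 22 and X, and every one of them was used here. They came from 4 libraries with a narrow and a broad list each, 698 of 23375 narrow peaks and 1889 of 54673 broad peaks. Members were taken by chromosome alone and not by any value of a peak. The choice was made with earlier results of these data known. ATAC-seq uses a transposase that cuts accessible DNA, and a peak is a place where cut fragments pile up above the local background of the same library. OVSAHO is an established ovarian cancer cell line.

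The test cells, named OVSAHO-A2-siA4 by the submitters, carry the genotype label SMARCA2 stable, SMARCA4 knockdown (test 1 and test 2), and the labels do not say what stable stands for. The control cells, OVSAHO-Ctrl-siNC, carry the genotype label WT (control 1 and control 2). SMARCA2 and SMARCA4 are the alternative motor subunits of SWI/SNF complexes, which slide and evict nucleosomes. Both groups grew in 25 µM carboplatin, a platinum drug that crosslinks DNA, for 2 days, so untreated cells are not part of the comparison. Peak lists do not measure expression, so the state of SMARCA2 and SMARCA4 was not checked, and no marker of the cell type was checked because no hg19 annotation was used. The labels do not say that the 2 libraries of a group were separate cultures, so p-values measure the spread between these libraries, which may be technical.

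The long arm of chromosome 13 holds 2 tumour suppressor genes that matter in ovarian carcinoma. BRCA2 acts in homologous recombination, a pathway that helps to repair platinum crosslinks. RB1 encodes the retinoblastoma protein, which holds E2F transcription factors in check and so restrains entry into S phase. In the order of RefSeq protein-coding genes, BRCA2 lies between ZAR1L and N4BP2L1, and RB1 between ITM2B and LPAR6.

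The results below report no call in a window around RB1, while calls were listed in the wider stretch where BRCA2 lies by textbook position. Whether calls lay at the promoters themselves was not tested. The promoters of both genes are printed for reference. They are RefSeq windows of 300 bases, 250 before to 50 after a transcript start, in GRCh38.p14, while all peak positions are in hg19, so the positions of the promoters and of the peaks are not comparable. The first is chr13:32315258-32315557 on the plus strand. The second is chr13:48303653-48303952 on the minus strand, belongs to the divergent transcript RB1-DT and covers the annotated start of RB1. Capitals mark CG dinucleotides, which read the same on both strands.
BRCA2: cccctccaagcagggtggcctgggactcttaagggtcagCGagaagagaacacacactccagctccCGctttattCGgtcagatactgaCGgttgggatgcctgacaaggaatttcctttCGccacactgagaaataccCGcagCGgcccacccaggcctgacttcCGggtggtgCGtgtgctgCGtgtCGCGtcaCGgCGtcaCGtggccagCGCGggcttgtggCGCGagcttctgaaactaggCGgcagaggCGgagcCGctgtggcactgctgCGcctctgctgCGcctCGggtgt
RB1-DT: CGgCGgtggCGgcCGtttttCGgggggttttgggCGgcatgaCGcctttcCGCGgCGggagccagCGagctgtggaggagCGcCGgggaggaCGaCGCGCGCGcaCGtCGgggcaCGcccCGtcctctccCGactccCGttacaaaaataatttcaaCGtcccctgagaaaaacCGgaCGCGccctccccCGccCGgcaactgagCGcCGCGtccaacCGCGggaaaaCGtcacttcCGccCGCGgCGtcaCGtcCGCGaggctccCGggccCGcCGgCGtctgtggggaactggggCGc
The BRCA2 window held 25 CG dinucleotides, and 32.0% of the 35116 RefSeq promoter windows held at least as many. The RB1-DT window held 48, which 1.98% of windows reached, and its G and C bases made up 71.3% of its length against 63.3% for BRCA2. The median window held 14.

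Depth differed between libraries, and control 1 stood apart. Per the file headers, narrow peaks rested on 6146272 to 15828837 nucleosome-free fragments and broad peaks on 22432549 to 31515662 fragments of all sizes, control 1 having the most of both. Its broad-list fragments averaged 131 bp, against 178 to 182 bp in the other 3 libraries. Results that rest on control 1 are therefore given with and without it. Values of a pair of libraries are given with replicate 1 before replicate 2.

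Along the chromosome the calls fell into stretches with different numbers. By calls per Mb of full width, the order of these stretches was the same in the 4 libraries. Sequence to which reads cannot map was not taken out of the widths. Calls were moderately frequent from 15 to 30 Mb, nearly absent from 30 to 75 Mb and crowded from 75 Mb to the end, with the fullest bin of 5 Mb at 110 to 115 Mb. In narrow peaks of test 1 the density was 0.667 per Mb from 15 to 30 Mb and 0.829 from 75 to 110 Mb, so these lay close. The borders were set after the bins had been seen, so the stretches are described without a test. From 30 to 75 Mb, 45 Mb of sequence held 2 and 1 narrow peaks in the test pair and 4 and 4 in the control pair. The next 35 Mb, from 75 to 110 Mb, held 29 and 57 in the test pair and 287 and 53 in the control pair. The last full bin, from 110 to 115 Mb, added 24 and 31 narrow peaks in the test pair and 123 and 31 in the control pair.

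**Figure D1:**
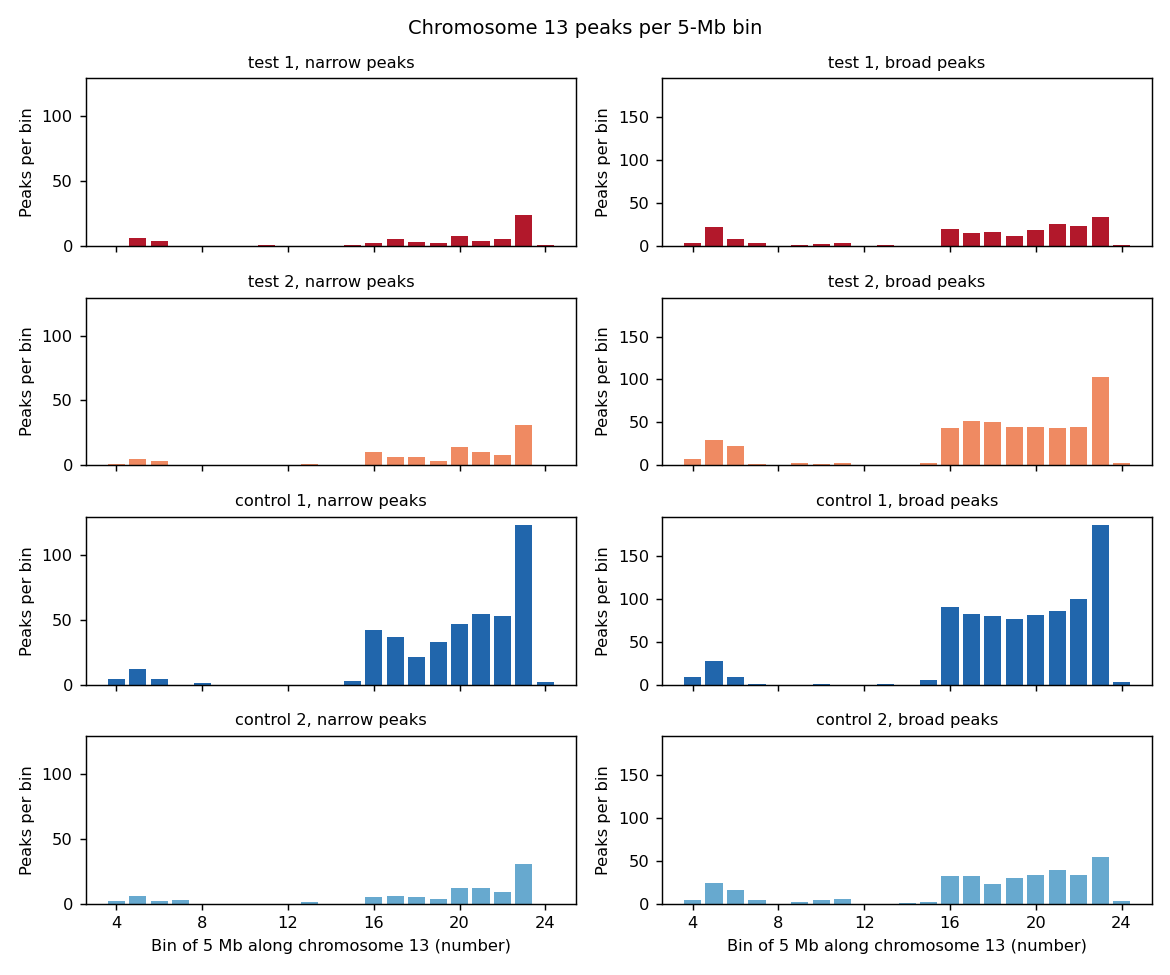
Number of narrow (left) and broad (right) peaks in each 5-Mb bin of chromosome 13, numbered from the start of the chromosome, one row per library with test libraries above control libraries. Bins 7 to 15 (30 to 75 Mb) are almost empty in all 8 lists, and bin 23 (110 to 115 Mb) is the fullest in each, with 24 to 123 narrow peaks.

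Broad peaks, called on fragments of all sizes, gave the same picture with larger numbers. The 30 to 75 Mb stretch held 11 and 13 in the test pair, against 8 and 19 in the control pair. The stretch from 75 to 110 Mb held 131 and 320 in the test pair and 595 and 222 in the control pair. Per Mb, that was 15.3 and 31.6 times the density of the sparse stretch in the test pair and 95.6 and 15 times in the control pair. The spread of these ratios is wide. Calls ran from 131 to 595 a library in the stretch from 75 to 110 Mb and from 8 to 19 in the sparse stretch. Control 1, which listed the most peaks on the chromosome, listed the fewest broad peaks there.

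Several bins inside the sparse stretch held nothing. No library had a narrow peak at 40 to 45, 45 to 50, 55 to 60 or 65 to 70 Mb, and none had a broad peak at 35 to 40 or 55 to 60 Mb. Of the 21 bins of chromosome 13, 9 held 3 or fewer narrow peaks over the 4 libraries together, 42.9%, against 12.9% of the 606 bins of the genome. For broad peaks it was 4 of 21 bins, against 2.48% of the genome's bins.

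The longest stretches free of narrow peaks show the same gap without bins. Test 1 had no narrow peak for 25.2 Mb (from 28033913 to 53226839) and test 2 none for 35.6 Mb (from 28033813 to 63618930). Control 1 had none for 38.2 Mb (from 36532364 to 74707255) and control 2 none for 28.9 Mb (from 34731428 to 63618887). In each library this was the longest such stretch on chromosomes 1 to 22 and X. The longest on any other chromosome measured 21.1 to 22.2 Mb. Among broad peaks the longest empty stretch of chromosome 13 measured 11.5 Mb and 20.4 Mb in the test pair, against 17.6 Mb and 14.6 Mb in the control pair. A stretch on chromosome 1 was longer in every library, at 21.1 Mb in each. Whether reads can map to the empty stretches was not tested.

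No peak of any kind was listed in the RB1 window, taken as 48.88 to 49.06 Mb in hg19, in any of the 8 lists. The nearest call of any list before it was a broad peak of control 2 at 48575197 to 48575548, which ended 0.304 Mb before the window. The nearest after it was a broad peak of test 2 at 49952947 to 49953331, which began 0.893 Mb beyond. With all 8 lists together the window lay in a stretch of 1.38 Mb without a call. The 5-Mb bin around the window, 45 to 50 Mb, held 2 and 2 broad peaks in the test pair. It held 1 and 4 in the control pair, and no library had a narrow peak there. A missing call is not a measured level, since reads below the threshold are not in these lists.

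Narrow peaks lay much farther from the window. The nearest before it ended 20.8 and 20.8 Mb away in the test pair and 12.3 and 14.1 Mb away in the control pair. The nearest after it began 4.17 and 14.6 Mb away in the test pair and 25.6 and 14.6 Mb away in the control pair. In both test libraries the call before the window was the strong site at 28033710 to 28034048 described below, so neither had a narrow peak between that site and the window.

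**Figure D2:**
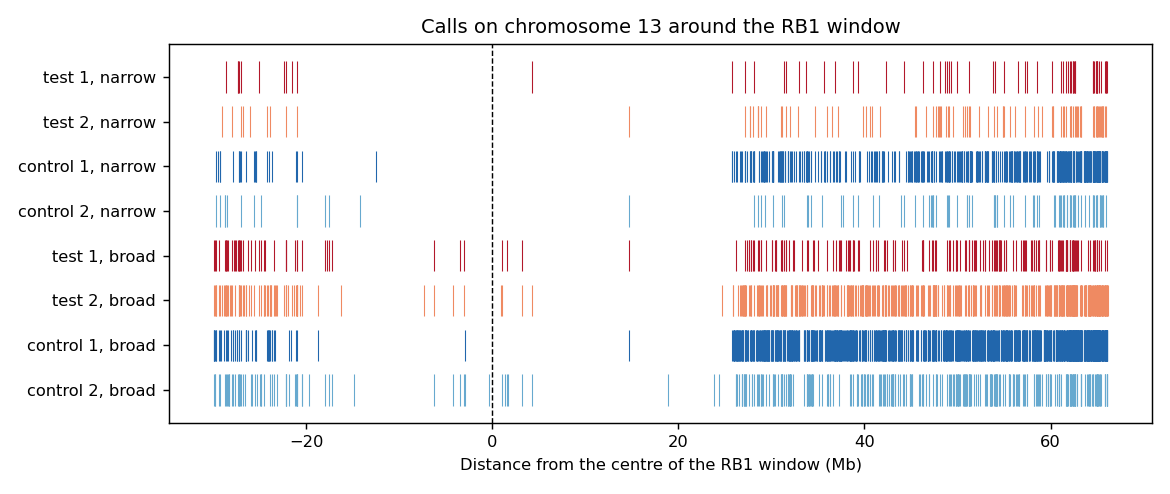
Every narrow and broad call on chromosome 13, one tick each, by distance in Mb from the centre of the RB1 window (dashed line), with test libraries above control libraries within each peak type. Ticks are scarce on both sides of the window, and they become dense at positions past 75 Mb.

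The 30 to 35 Mb bin, where BRCA2 lies in hg19 by textbook position, held 14 calls over the 8 lists. Broad peaks numbered 4 and 2 in the test pair, against 1 and 4 in the control pair, and narrow peaks 0 and 0 in the test pair and 0 and 3 in the control pair. The groups did not separate in either list. The broad peaks formed 7 regions, of which 4 were called in 2 libraries. The one at 31444567 to 31444934 had a fold enrichment (the authors' ratio of pileup to local background) of 4.73 in test 1 and 4.81 in control 2, and that at 31040015 to 31040306 had 4.22 and 4.26 in these libraries. Another at 31736136 to 31736544 had 3.68 in test 1 and 3.66 in control 2, and that at 30221112 to 30221674 had 3.54 in test 2 and 4.69 in control 1. Each of the 4 paired a test library with a control library, and no region of the bin was called in both libraries of 1 group.

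The 3 narrow peaks of the bin, all in control 2, lay at 31040146 to 31040230, at 31444726 to 31444930 and at 34731360 to 34731428, the first 2 inside the broad regions just named. After the broad peak of test 2 at 32746122 to 32746306, no list had a call until 34116739, a stretch of 1.37 Mb. No call of the bin reached a −log10 q of 5.

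Among listed calls, fold enrichment in the sparse stretch was higher than at 75 to 110 Mb in broad but not throughout in narrow peaks. The median broad value of the sparse stretch was 4.22 and 3.86 in the test pair and 3.69 and 4.07 in the control pair. That of the 75 to 110 Mb stretch was lower in each library (3.73 and 3.59 in the test pair, 3.61 and 3.43 in the control pair). Narrow medians of the sparse stretch, from 1 to 4 calls a library, were 5.12 and 5.75 in the test pair and 5.296 and 5.075 in the control pair. At 75 to 110 Mb they were 5.39 and 4.88 in the test pair and 5.20 and 5.077 in the control pair. Calls under the q limit are not listed, so these medians do not measure weak sites. From 30 to 75 Mb there were 35 broad regions, 12 of them called in 2 or more libraries. The 4 called in 3 libraries all lacked a call in control 1. The region at 42680217 to 42680568 had 5.12 and 3.79 fold enrichment in the test pair and 5.55 in control 2. That at 45915343 to 45915802 had 4.82 and 3.86 in the test pair and 5.11 in control 2. At 50018113 to 50018428 the test pair had 4.02 and 4.21 and control 2 had 4.53, and at 52158035 to 52158710 the test pair had 5.13 and 4.52 and control 2 had 4.02. No broad region there was called in all 4 libraries, and control 1 had no call at 27 of the 35. Fold enrichment over all calls of the stretch ran from 3.31 to 5.55 in broad peaks and from 4.23 to 6.77 in narrow peaks.

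The local background behind a peak follows from its pileup and its fold enrichment: 1 is added to the pileup, the sum is divided by the fold enrichment, and 1 is taken away. It was divided by the library's genome-wide floor, the total fragments times their mean size over the effective genome size, below which the caller never sets a background. A value of 1 therefore means that coverage around the peak was at or below the average of the genome, and how far below cannot be read. In the sparse stretch most broad peaks of every library but control 1 sat at that floor. Counting values within 2% of it, these were 10 of 11 and 11 of 13 broad peaks in the test pair and 3 of 8 and 19 of 19 in the control pair. Of the other 5 in control 1, 4 began at or past 74815599, next to the crowded stretch. Over the rest of the genome 13.8% to 20.4% of the broad peaks of a library were at the floor. The median over floor from 30 to 75 Mb was 1.0 and 1.01 in the test pair, against 1.13 and 1.0 in the control pair.

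The passage to the crowded stretch was narrow. Over the 4 libraries together broad peaks numbered 0 at 70 to 71 Mb, 0 at 71 to 72 Mb, 1 at 72 to 73 Mb, 2 at 73 to 74 Mb, 7 at 74 to 75 Mb and 34 at 75 to 76 Mb. They stayed between 33 and 42 per Mb up to 80 Mb. The first narrow peak past the gap lay at 74707255 to 74707319 in control 1 and the next at 74708518 to 74708609 in test 1, 1 library of each group within 2 kb.

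Beyond that border the background first fell. By the mean over libraries the broad median over floor was 1.34 at 75 to 80 Mb, 1.16 at 80 to 85 Mb and 1.04 at 85 to 90 Mb. In broad peaks at 85 to 90 Mb the median over floor was 1.04 and 1.08 in the test pair, against 1.03 and 1.0 in the control pair, the lowest of the crowded bins. At 90 to 95 Mb the test pair had 1.24 and 1.12 and the control pair 1.13 and 1.15. At 95 to 100 Mb the test pair had 1.99 and 1.67 and the control pair 1.63 and 2.01, which is 1.45 to 1.76 times the bin before in each of the 4 libraries. Broad peaks at 95 to 100 Mb numbered 19 and 44 in the test pair and 81 and 33 in the control pair, against 12 and 44 in the test pair and 76 and 30 in the control pair at 90 to 95 Mb.

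The steepest rise was at the end of the chromosome. At 110 to 115 Mb the broad median over floor was 2.90 and 2.61 in the test pair, against 2.54 and 2.57 in the control pair. At 105 to 110 Mb it was 1.56 and 1.44 in the test pair and 1.26 and 1.45 in the control pair. The last full bin was 1.78 to 2.01 times its neighbour, and its mean over the libraries lay at the 92.5th percentile of the 496 bins of the genome with 3 or more broad peaks in every library. Narrow peaks gave 3.29 and 3.75 in the test pair, against 2.96 and 2.95 in the control pair. Fold enrichment did not follow the background: the median narrow value there was 1.02 to 1.17 times that of the 75 to 110 Mb stretch, and the broad one 0.894 to 1.01 times.

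**Figure D3:**
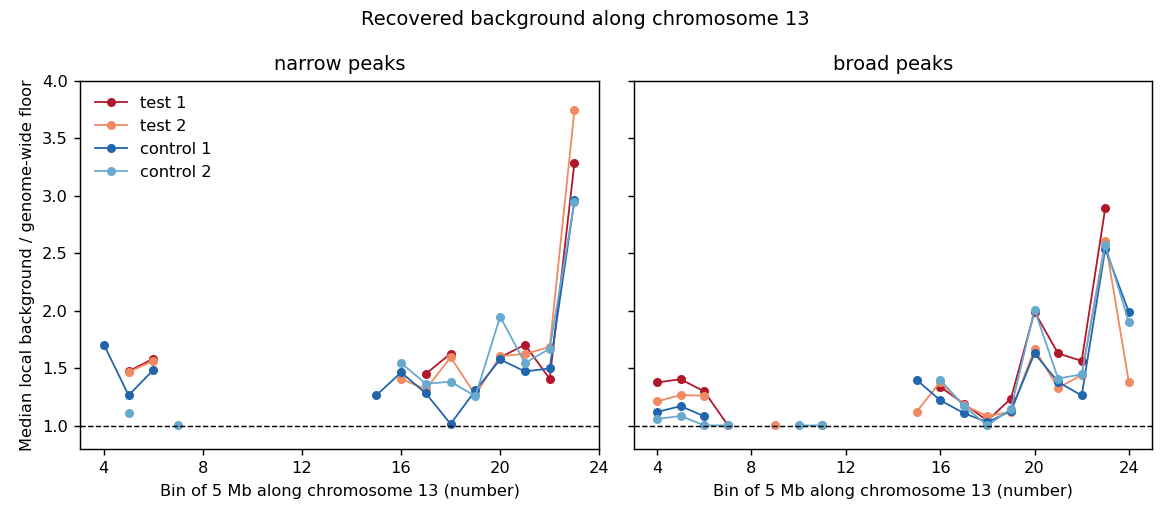
Median recovered background over the genome-wide floor in each 5-Mb bin with 3 or more peaks, for narrow (left) and broad (right) peaks, one line per library, with the floor dashed. All libraries lie at or near the floor in bins 7 to 11 where a value exists, and broad values reach 2.54 to 2.90 in bin 23.

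The profile along the chromosome was alike in the libraries. Over the 11 bins with 3 or more broad peaks in every library, Pearson's r of the broad medians between pairs of libraries ran from 0.949 to 0.986. Without the 110 to 115 Mb bin it ran from 0.885 to 0.960 over 10 bins. In narrow peaks it was 0.904 to 0.985 over 7 bins but -0.0399 to 0.721 over the 6 without that bin. By the mean over libraries, narrow background was highest at 110 to 115 Mb (3.24), 95 to 100 Mb (1.68) and 100 to 105 Mb (1.59) and lowest at 20 to 25 Mb (1.33), 80 to 85 Mb (1.35) and 85 to 90 Mb (1.41). Bins of different libraries share base composition and mappability, so these are descriptions.

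Between the groups, background over floor was higher in both test libraries than in both control libraries in 6 of the 11 broad bins, against 25.4% of 496 bins in the genome. The reverse held in 0 of 11, against 6.25%. The bins were those at 15 to 30 Mb, 80 to 90 Mb and 110 to 115 Mb, and at 20 to 25 Mb, for example, the values were 1.41 and 1.27 in the test pair, against 1.17 and 1.09 in the control pair. Narrow peaks did so in 4 of 7 bins, against 32.7% of 309 bins, and the reverse in 0 of 7, against 5.18%. With few bins on 1 chromosome, shared by the same 4 libraries, nothing particular to chromosome 13 is read from these counts.

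Set against the other autosomes of its own library, the narrow background of chromosome 13 overlapped between the groups. Its median bin stood at 0.850 and 0.906 of the autosomal median in the test pair, against 0.997 and 0.886 in the control pair. The means were 0.878 ± 0.0398 in test and 0.941 ± 0.0786 in control libraries (SD, n = 2 each; exact two-sided permutation p = 0.667). In broad peaks the difference of -0.0633 turned to 0.00892. Other bins moved it the other way. With 5 or more peaks a bin it was -0.181 (0.657 and 0.837 in the test pair, 0.960 and 0.896 in the control pair), and with bins of 2 Mb it was -0.122 (0.660 and 0.888 in the test pair, 0.899 and 0.893 in the control pair). Neither setting left an overlap, and each gave an exact permutation p of 0.333. The median narrow fold enrichment of the chromosome, over that of the rest of its list, was 0.909 and 0.916 in the test pair, against 1.03 and 0.939 in the control pair. These did not overlap, and their means of 0.913 ± 0.00500 in test and 0.986 ± 0.0655 in control libraries gave the smallest p that the design allows (SD, n = 2 each; exact two-sided permutation p = 0.333). In broad peaks the ratios overlapped, at 0.940 and 0.984 in the test pair and 1.0 and 0.937 in the control pair, and the difference of -0.0726 shrank to -0.00782.

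**Figure D4:**
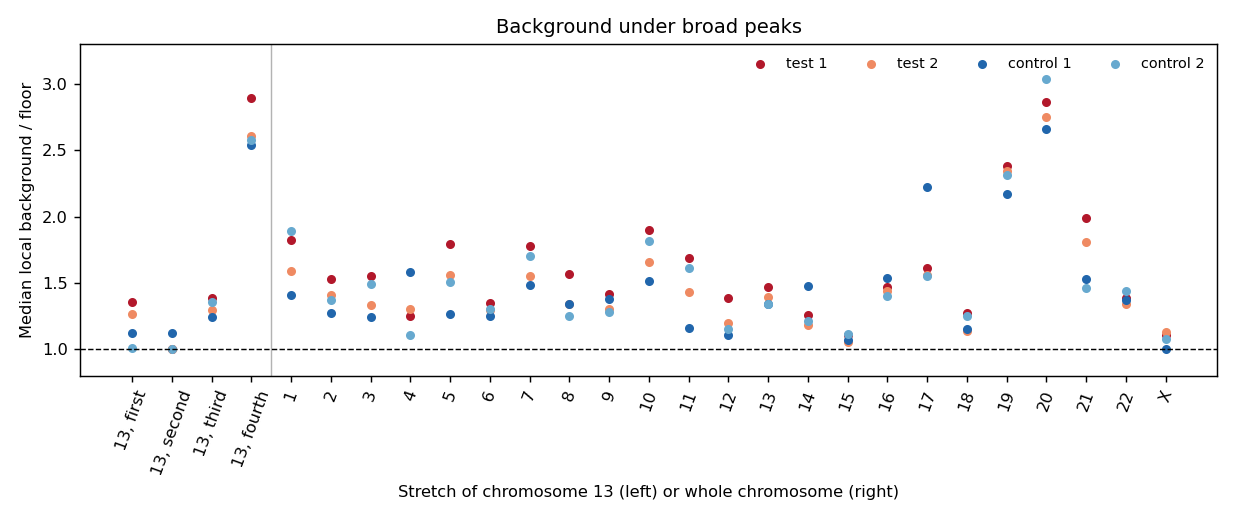
Median background over floor under broad peaks for 4 stretches of chromosome 13 (in order, 15 to 30, 30 to 75, 75 to 110 and 110 to 115 Mb) and for whole chromosomes, one point per library. The stretch from 30 to 75 Mb lies between 1.0 and 1.13, and the last between 2.54 and 2.90, while chromosome 20 as a whole has values from 2.66 to 3.04.

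In total, chromosome 13 peaks were fewer in the test libraries on average, but the difference was smaller than the spread within the control group. Narrow peaks numbered 66 and 98 in the test pair, against 436 and 98 in the control pair. The means were 82 ± 22.6 in test and 267 ± 239 in control libraries (SD, n = 2 each; exact two-sided permutation p = 0.667, where 0.333 is the smallest that 2 against 2 libraries allow). Control 2 equalled test 2, so the difference of -185 came to -16 without control 1. With lists of equal length it was -21.5, from 66 and 70 in the test pair and 130 and 49 in the control pair. At a −log10 q of at least 5 the counts were 18 and 16 in the test pair and 86 and 28 in the control pair, a difference of -40 with no overlap (exact permutation p = 0.333). Broad peaks numbered 211 and 497 in the test pair, against 837 and 344 in the control pair. Their means were 354 ± 202 in test and 590.5 ± 349 in control libraries (SD, n = 2 each; exact two-sided permutation p = 0.667), and without control 1 the difference of -236.5 became 10.

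As a share of its own list, chromosome 13 took 1.94% of the narrow peaks of test 1 (95% exact interval 1.5 to 2.46) and 2.35% of test 2 (1.91 to 2.86), against 4.21% of control 1 (3.83 to 4.61) and 1.80% of control 2 (1.46 to 2.19). Intervals are Clopper-Pearson and cover counting error only. In broad peaks the shares were 2.37% and 3.57% in the test pair, against 4.53% and 2.58% in the control pair. The narrow means of 2.14% ± 0.290 in test and 3.0% ± 1.70 in control libraries did not differ beyond the spread (SD, n = 2 each; exact two-sided permutation p = 1). For broad shares, 2.97% ± 0.844 in test and 3.55% ± 1.38 in control libraries (SD, n = 2 each), the same exact permutation test gave p = 0.667. Without control 1 the test shares were the higher ones, by 0.344 points in narrow and 0.392 points in broad peaks. Ordered by its share, chromosome 13 ranked at 18 and 17 of 23 chromosomes in the test pair and at 8 and 20 in the control pair in narrow peaks.

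**Figure D5:**
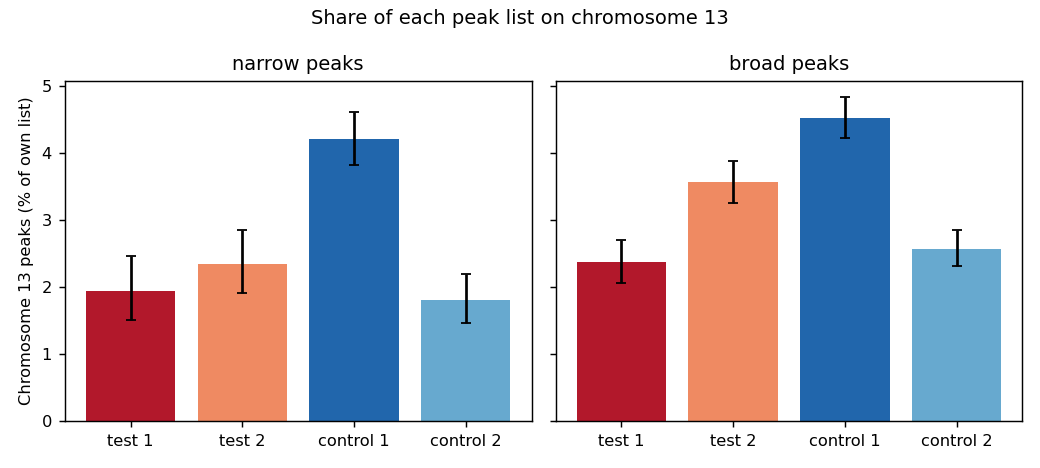
Share of each library's narrow (left) and broad (right) list that lay on chromosome 13, with 95% exact intervals for counting error. Control 1 is the highest in both lists, at 4.21% and 4.53%, and test 2 is second in both.

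Most of the surplus of control 1 lay in the crowded stretches. From 75 to 115 Mb lay 80.3% and 89.8% of the narrow peaks of the chromosome in the test pair and 94.0% and 85.7% in the control pair. For broad peaks these shares were 78.2% and 85.1% in the test pair and 93.3% and 80.5% in the control pair. Before 30 Mb broad peaks numbered 34 and 58 in the test pair and 45 and 45 in the control pair. Narrow peaks there numbered 10 and 9 in the test pair and 20 and 10 in the control pair, so control 1 had a surplus in narrow but not in broad peaks.

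Fewer peaks of chromosome 13 than of the same library elsewhere reached a strict q. Narrow peaks of chromosome 13 with a −log10 q of at least 5 made up 27.3% and 16.3% of its calls in the test pair, against 19.7% and 28.6% in the control pair. On the other chromosomes they made up 45.5% and 39.6% in the test pair, against 25.9% and 41.9% in the control pair. The share was lower on chromosome 13 in 4 of 4 libraries, by 15.3 ± 7.30 points in narrow and 10.7 ± 6.55 points in broad peaks (SD, n = 4; exact sign-flip permutation p = 0.125 each, the smallest that 4 libraries allow). Median fold enrichment was lower on chromosome 13 in 3 of 4 libraries, with a mean difference of -0.301 ± 0.319 in narrow and -0.130 ± 0.127 in broad peaks (SD, n = 4; exact sign-flip permutation p = 0.25 each). In control 1 it was higher, at 5.28 on chromosome 13 and 5.11 elsewhere in narrow peaks and at 3.56 and 3.55 in broad peaks. A broad peak of the same library overlapped 47.0% and 48.0% of the narrow peaks on chromosome 13 in the test pair and 43.6% and 49.0% in the control pair. Elsewhere it overlapped 71.6% and 61.2% in the test pair and 42.7% and 67.4% in the control pair, so control 1 was the exception to the lower value on chromosome 13 (mean difference -13.9 ± 10.9 points, SD, n = 4; exact sign-flip permutation p = 0.25).

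Merging the lists gave 602 narrow regions on the chromosome, 533 of them called in 1 library and 398 of these in control 1. Control 1 alone thus made 66.1% of the regions, against 49.9% over the genome. Regions called in 2 or more libraries numbered 69, or 11.5%, against 19.3% over the genome. Without control 1 they were 44 of 204, or 21.6%, against 31.4% over the genome. Broad peaks gave 1401 regions, of which 326 (23.3%) were called in 2 or more libraries, against 29.6% over the genome. Without control 1 they were 186 of 777 (23.9%), against 36.5% over the genome. Control 1 alone made 626 of the 1401 (44.7%), against 38% over the genome. Sharing was uneven along the chromosome: 20.9% of the 158 narrow regions at 110 to 115 Mb were called in 2 or more libraries, against 7.93% of the 391 from 75 to 110 Mb.

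Sharing was not highest within a group. Test 1 and test 2 had 19 narrow regions in common, 29.2% of those of test 1 and 19.4% of those of test 2. Test 1 and control 2 had 22 in common, 33.8% and 22.7% of their lists, and test 2 and control 2 had 27, 27.6% and 27.8%. Control 1 and control 2 shared 17, which is 3.90% of the longer list of control 1 and 17.5% of that of control 2. These counts come from overlapping pairs of libraries and were not tested.

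Narrow peaks in all 4 libraries marked 6 regions, 0.997% of the narrow regions of the chromosome, against 3.86% over the genome. The strongest lay at 110076475 to 110076676, with a fold enrichment of 69.8 and 68.1 in the test pair, against 51.2 and 70.3 in the control pair. Its pileup was 444 and 386 fragments in the test pair and 165 and 567 in the control pair, so control 1, the deepest library, had the lowest. Its local background stood at 34.7 and 28.2 times the floor in the test pair and 6.16 and 39.0 times in the control pair, far above the median of its bin. The background came from the same library without a control, so the fragments of the peak itself enter it. How much of the value they make up was not tested. No list of sequences that attract misplaced reads was applied, so whether this site is one of them was not tested.

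The second lay at 28033710 to 28034048, the last strong site before the sparse stretch. Its fold enrichment was 26.7 and 28.0 in the test pair, against 37.7 and 27.6 in the control pair, over a background of 2.73 and 3.45 times the floor in the test pair and 2.43 and 2.48 times in the control pair. Broad peaks of all 4 libraries covered it, at 9.75 and 9.97 fold in the test pair and 10.4 and 10.9 fold in the control pair. This site differed from the first in that control 1 was the highest of the 4 in narrow peaks.

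The other 4 were weaker. The region at 21951454 to 21951776 had a narrow fold enrichment of 8.83 and 5.63 in the test pair, against 11.8 and 5.92 in the control pair, and broad peaks of all 4 libraries covered it. That at 114965140 to 114965273 had 10.5 and 11.4 in the test pair and 14 and 9.43 in the control pair. At 111134122 to 111134216 the test pair had 7.21 and 9.05 and the control pair 9.41 and 8.88, and at 113886338 to 113886469 the test pair had 6.44 and 6.82 and the control pair 9.73 and 6.29. In the 4 of them control 1 had the highest value, and at 114965140 and 113886338 it was also the sole library with a broad peak.

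Both test libraries but neither control library had a narrow peak at 5 regions, called test-only here (0.831% of the narrow regions, against 1.25% over the genome). The highest ranked lay at 114145117 to 114145254, where the test pair reached 5.67 and 6.14 fold enrichment. The others lay at 80510894 to 80511015 (5.52 and 5.96), 76123498 to 76123598 (5.33 and 6.61), 114809004 to 114809118 (5.32 and 5.54) and 26760727 to 26760879 (5.78 and 4.76). A broad peak of control 2 overlapped 4 of the 5, all but that at 114809004. Pileup at these sites was 5 to 8 fragments. None reached a −log10 q of 5 in both test libraries.

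Control-only narrow regions numbered 6 (0.997%, against 1.25% over the genome). The highest ranked lay at 113527176 to 113527374, where the control pair reached 6.64 and 6.80 fold enrichment. Next came 111038145 to 111038253 (7.29 and 5.87), 112669274 to 112669468 (6.47 and 5.44), 83178482 to 83178551 (4.71 and 5.70), 82849846 to 82849969 (5.11 and 5.08) and 107465463 to 107465664 (5.16 and 4.60). A broad peak of test 2 overlapped the first 4, and at 82849846 and 107465463 control 1 was the sole library with a broad peak. Without control 1 the control-only class means called in control 2 and in neither test library, and it held 60 regions. This count is not comparable with the 6 called in both control libraries. The test-only count was 7.

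Broad regions gave 9 test-only (0.642%, against 1.03% over the genome) and 21 control-only regions (1.5%, against 1.24%). The highest ranked test-only region lay at 24553615 to 24554529, where the test pair reached 4.58 and 3.6 fold enrichment, followed by 90393335 to 90393559 (3.94 and 4.86), 80499810 to 80500347 (3.81 and 3.81), 87169387 to 87169651 (3.79 and 3.86) and 110697226 to 110697659 (3.71 and 3.61). None of these 5 overlapped a narrow peak of any library. The highest ranked control-only region lay at 105601694 to 105601953, where the control pair reached 3.94 and 3.74, followed by 98254182 to 98254646 (3.66 in both), 90535849 to 90536236 (4.36 and 3.66), 83012533 to 83012880 (3.69 and 3.61) and 88704134 to 88704633 (3.59 and 3.57). Of these, 3 overlapped a narrow peak, each of control 1. With lists cut to equal length there were 17 test-only and 4 control-only broad regions, the opposite balance.

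Broad peaks in all 4 libraries marked 24 regions (1.71%, against 3.04% over the genome), 20 of them past 75 Mb and 0 from 30 to 75 Mb. Some are named here, chosen after their values were seen. Besides the 2 strong sites there were those at 21951397 to 21951816, with a fold enrichment of 6.69 and 5.74 in the test pair, against 7.60 and 4.53 in the control pair, and at 111037788 to 111038282 (4.80 and 6.75 in the test pair, 9.06 and 5.92 in the control pair). The site at 111037788 holds one of the control-only narrow regions, while the broad region was called in every library. The region at 76123156 to 76123984, near the start of the crowded stretch, had 4.70 and 4.86 in the test pair and 3.37 and 5.16 in the control pair, and it holds one of the test-only narrow regions. At 96328916 to 96329686 the values were 5.42 and 5.96 in the test pair and 3.66 and 5.63 in the control pair.

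The widest broad regions also lay past 75 Mb. That at 114088898 to 114091227 measured 2330 bp and was called at 2.98 fold in test 2 and at 3.35 and 2.51 fold in the control pair. That at 91999360 to 92001397 measured 2038 bp and was called at 4.54 and 3.86 fold in the test pair and 3.92 fold in control 2. The one at 114247099 to 114248785, measured 1687 bp and was called in test 2 and control 1. The median broad peak of chromosome 13 was 311 and 337 bp long in the test pair and 266 and 317.5 bp in the control pair. On the other chromosomes it was 352 and 336 bp in the test pair and 261 and 364 bp in the control pair.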

How the data were processed

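ATAC-seq peak lists of 2 test and 2 control libraries were used, 8 lists in all, with groups taken from the labels. Per the file headers, MACS2 2.2.7.1 was run on the fragments of 1 library at a time, without a control, keeping duplicates. Its q limit was 0.05, its genome size 2.7e+09 and its regional background window 10000 bp. Narrow peaks came from alignments named as nucleosome-free and broad peaks from all fragments. The headers' alignment names also mention a shift for the transposase. The submitters' processing notes name hg19, cutadapt 3.2, Bowtie2 2.3.5.1, deepTools 3.5.1, Picard and edgeR 3.34.1, without a role.

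The deposited pileup is a coverage signal in fragments, the deposited p and q are on the −log10 scale, and the deposited fold enrichment is a ratio over that library's local background. They are the authors' own values per peak and are not normalized between libraries. Duplicates can raise the pileup, and a deeper library can pass the threshold at weaker sites. Peak numbers in a list run without a gap, so the lists were read as whole.

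Chromosomes 1 to 22 and X were used. Bins of 5 Mb take a peak by its start, and a bin's background needed 3 or more peaks. For broad peaks, whose deposited values are means over the peak, the recovered background is approximate. Peaks sharing 1 bp were merged into regions. Group values went into exact two-sided permutation tests, each library being 1 value. Regions were named by a rule: up to 10 narrow regions of all 4 libraries, up to 10 narrow and 5 broad per group-specific class, the calls nearest RB1, those of 2 libraries at 30 to 35 Mb, the 3 bins highest and lowest in narrow peaks and in background, and the 3 widest broad regions. The score is the smallest percentile of fold enrichment within the own list among the calling libraries. The sites of 3 libraries in the sparse stretch, the broad regions of all 4 libraries and the stretches were chosen after values were seen. Members and lists were chosen with earlier results of these data known. Merging was tested on simulated data, which returned the right libraries for 2000 of 2000 simulated regions at each step. The simulated regions lay well apart, with the same length and nearly the same start in all libraries. Crowded or offset peaks were therefore not tested. Planned checks of gene promoters and marker genes were not run, since no hg19 annotation was used. Calculations ran in Python 3.11.15 with scipy 1.17.1, pandas 2.3.3 and numpy 2.4.6, and plots were drawn with matplotlib 3.10.9. Alternatives were a stricter q, lists of equal length, other overlap rules, other bins, each library left out and the replicate numbers as a block.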

Additional observations from a re-analysis of the deposited data

How the results depend on the processing

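The mean number of narrow peaks on chromosome 13 stayed lower in the test libraries under every alternative tried. The difference was -21.5 with lists of equal length, -40 at the stricter q and from -354 to -16 when a library was left out. With lists of equal length control 2 had 49 peaks, fewer than the 66 and 70 of the test pair. The sign there rested on the 130 of control 1. Broad peak numbers and both shares turned without control 1, and broad shares also without test 1. Leaving out a library gave differences from -483 to 10 broad peaks, from -2.06 to 0.344 points of the narrow list and from -1.56 to 0.392 points of the broad list. It gave -0.119 to -0.00774 for the relative background, which was -0.181 with 5 or more peaks a bin, -0.122 with bins of 2 Mb and 0.00892 in broad peaks. It gave -0.119 to -0.0263 for the relative fold enrichment, which was -0.00782 in broad peaks. The 2 groups share replicate numbers but the labels tie them to no culture or day. Pairing by these numbers cannot change the differences of -185 narrow and -236.5 broad peaks, so it bears on p alone. As a replicate block the exact sign-flip permutation p was 1 for both, where 0.5 is the smallest possible. Same-numbered libraries deviated in opposite directions over the genome's bins (r = -0.258 in narrow and -0.598 in broad peaks). With crossed numbers, chosen after the data were seen, the exact sign-flip permutation p was 0.5 for both differences. Per 1000000 fragments, also chosen after the data were seen, the differences were -7.79 narrow and -4.80 broad peaks.

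At a −log10 q of 5 or more there were 0 test-only and 1 control-only narrow regions, 0 test-only, 0 control-only and 3 shared broad regions, and 0 of the 14 calls at 30 to 35 Mb. Equal list lengths gave 17 test-only, 4 control-only and 12 shared broad regions. Leaving out a library gave 7 to 55 test-only, 6 to 404 control-only and 6 to 12 shared narrow regions, and 20 to 234, 24 to 648 and 24 to 89 broad ones. The classes were redefined over the remaining libraries. A group left with 1 library then counts regions of that library alone, so these ranges partly reflect the changed definition. An overlap of 50% of the shorter peak and merging within 100 bp kept every count within 1.5 times its value, and 89 of 91 named regions kept their number of libraries under each. The stricter q changed that number at 79 of them. The depth of a list limits what its absences mean: a site missing from a library may lie just under the threshold, and coverage below the floor cannot be read.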
